A study of Rattus norvegicus with 6 samples.

Results

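The distal nephron and collecting duct genes are 33 markers of the thick ascending limb, the distal convoluted and connecting tubules and the collecting duct, chosen for what they mark in kidney. A probe was assigned to a gene where its accession is a RefSeq transcript of that gene. Of the 33 genes, 30 were among the 15645 gene symbols that the array's probes could be named with, while Trpm6, Fxyd4 and Tmem213 were not matched and are not analysed here. Renal cortex RNA was measured on 1-colour Agilent arrays, 1 array per sample. The animals were male Sprague-Dawley rats bought at 5 weeks of age. Dosing lasted 4 weeks: 3 rats had the vehicle, corn oil, and 3 had the fungicide chlorothalonil, at 500 mg/kg/day. All arrays share strain, sex and tissue. No genetic change is stated for either group, and no other agent except in the 1 source name that follows. Chlorothalonil replicate 3 is named for ethylenediamine dihydrochloride in its source name but for chlorothalonil in its title, treatment and dose, so results are also given without it. The corn oil arrays shared 1 slide and the chlorothalonil arrays another, so slide and treatment cannot be told apart in any value below.

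The thick ascending limb reabsorbs sodium chloride without water and makes the urine dilute. The distal convoluted and connecting tubules then set the final uptake of sodium, calcium and magnesium, and the collecting duct adjusts water and sodium under vasopressin and aldosterone. Within the connecting tubule and collecting duct, principal cells carry the water and sodium channels, and intercalated cells secrete acid or base. The renal cortex holds all of these segments, but most of its tubule mass is proximal.

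Between 38234 and 41711 of 61537 probes on an array stood well above background, the scanner software's call of signal over local background. Levels below, in the order of replicates 1 to 3, are log2 processed signal minus the array's 75th percentile, so a level of 0 is the brightness of that percentile, and levels of different genes are not compared. The labelled tissue carried its markers: each of 22 proximal tubule markers was measured, with a median log2 difference of 0.09 between the groups. Of 6 urothelium and papilla markers, 3 were testable, while Upk2 and Krt20 were not well above background on any array. In bulk tissue, fewer cells of a type and less RNA per cell cannot be told apart.

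With chlorothalonil, 0 of the 29 testable genes passed the limma test at an adjusted p of 0.05, where 3.12% of all 29115 features did, and 4 reached an unadjusted limma p below 0.05 (1 higher, 3 lower), where 19.7% of all features did. The gene Pvalb, a calcium-binding protein of the early distal convoluted tubule, was not well above background on any array, so it had no testable level. The other 29 were well above background on all 6 arrays. Their median log2 difference, chlorothalonil minus corn oil, was 0.04, with 17 above 0 (50.8% of all features were) and 12 below. The range ran from −0.56 for Calb1 to 0.73 for Slc4a1. In 28 of the 29, the 95% limma interval lay within a change of 1 on the log2 scale. The share of all features with such an interval was not computed, and 2.08% had a difference of at least 1. In 27 of the 29 the difference was at most 0.3 (21.3% of all features went beyond it). The groups did not overlap for 5 genes (17.2%), against 27.7% of all features. The 95% intervals of these genes were wider (median width 0.82) than those of all features (0.51). Their lower shares are therefore not read as less change. In 26 of 29 genes the wider of the groups' ranges, highest minus lowest array, exceeded the difference between the group means. The share of all features for which this holds was not computed. Without chlorothalonil replicate 3, 0 of the 29 passed the limma test and 3 reached an unadjusted p below 0.05; Calb1 was then at −0.42, Slc8a1 at −0.12, Wnk4 at −0.29, Kcnj1 at −0.21 and Slc4a1 at 0.83.

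**Figure D1:**
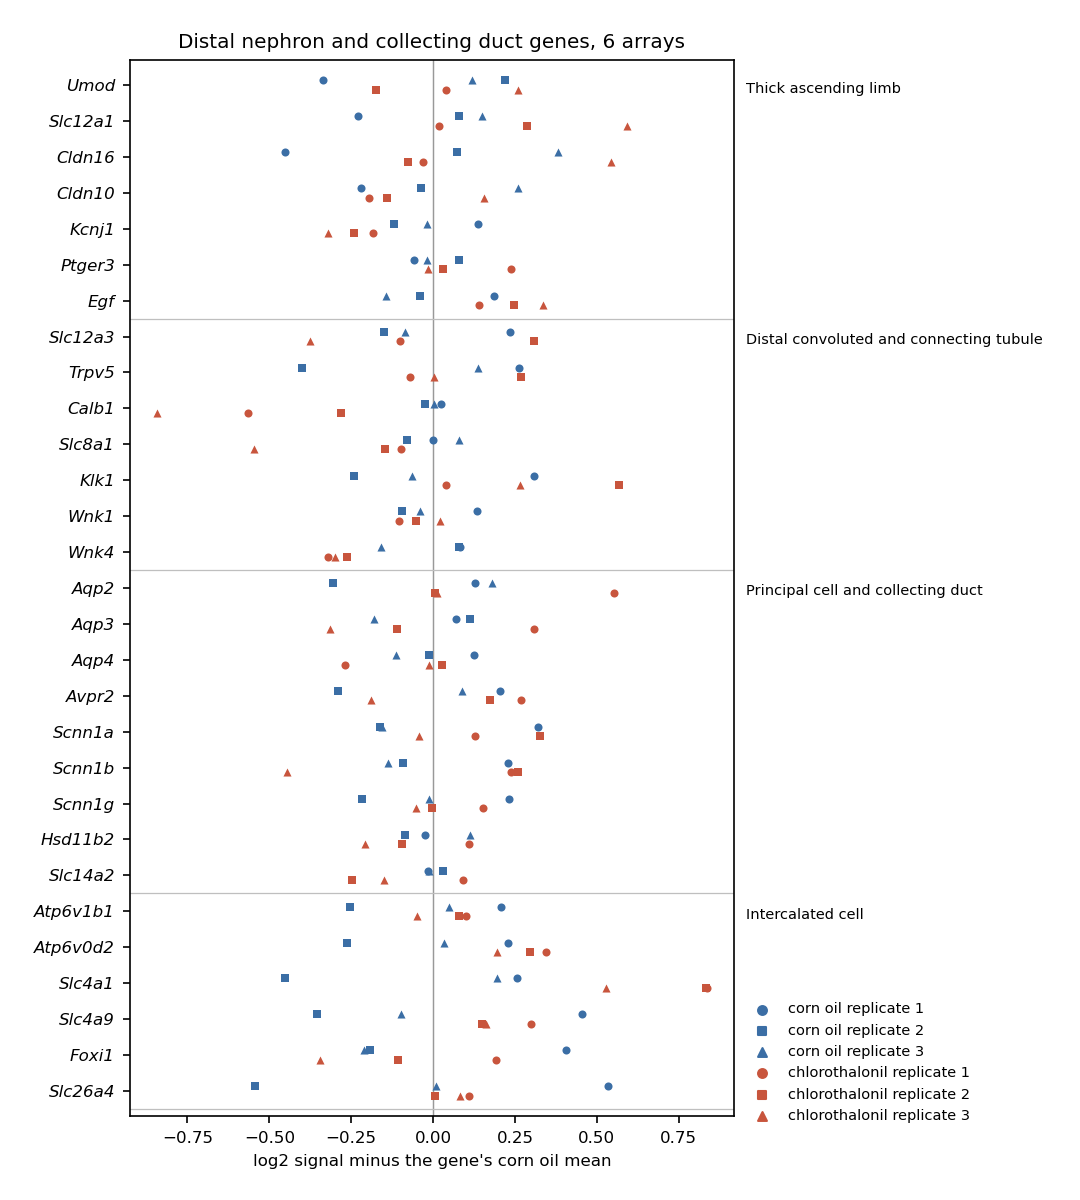
Log2 signal of each of the 29 testable genes on the 6 arrays, relative to the gene's mean over the corn oil arrays (x axis); colours give the group, marker shapes the replicate. Calb1, Kcnj1, Slc8a1 and Wnk4 lie lower on all 3 chlorothalonil arrays and Slc4a1 higher, while the groups overlap for the other genes.

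**Figure D2:**
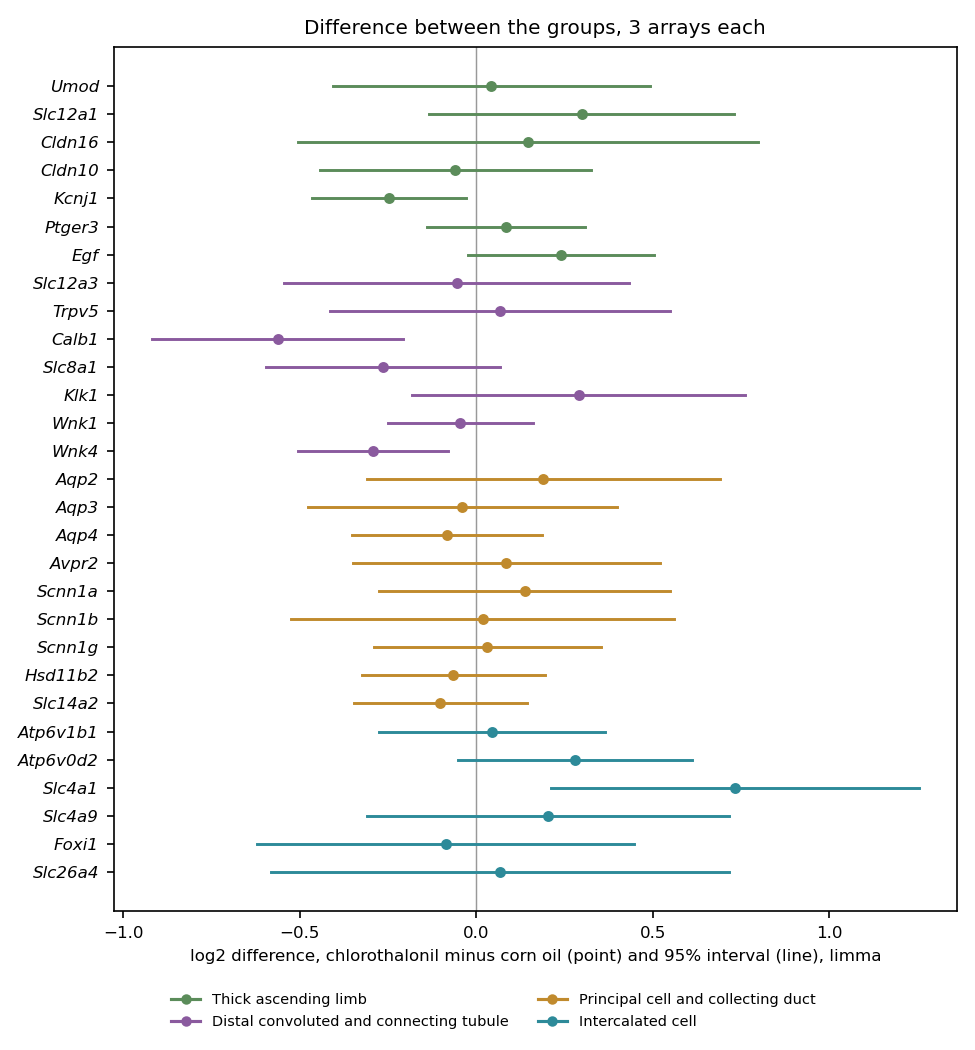
Log2 difference, chlorothalonil minus corn oil, of each gene (points) with its 95% limma interval (lines), coloured by segment. The intervals of Calb1, Kcnj1, Wnk4 and Slc4a1 leave out 0, and none of the 29 genes passed after adjustment over 29115 features.

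In the thick ascending limb, 0 of 7 genes passed the limma test and 1 reached an unadjusted p below 0.05 (19.7% of all features). The median log2 difference was 0.08, with 5 above 0 and 2 below. It was −0.081 without corn oil replicate 1, −0.053 without chlorothalonil replicate 3, and up to 0.15 without another array. Umod, the uromodulin gene whose protein is the most abundant in normal urine, was at 8.06, 8.62 and 8.51 on the 3 corn oil arrays and at 8.44, 8.22 and 8.66 on the 3 chlorothalonil arrays. The groups overlapped throughout, and the difference was 0.04 ± 0.18 (SE; 95% interval −0.41 to 0.49). Slc12a1, the sodium-potassium-chloride cotransporter that loop diuretics block, was at 4.17, 4.48 and 4.55 in corn oil rats and at 4.42, 4.69 and 4.99 in treated rats. Its difference of 0.30 ± 0.18 was short of the threshold (adjusted p 0.41), and the highest of all 6 values was chlorothalonil replicate 3. Kcnj1, the potassium channel that recycles potassium into the lumen for that cotransporter, had 0.98, 0.73 and 0.83 in corn oil rats and 0.66, 0.60 and 0.52 in treated rats. All 3 treated values lay below all 3 controls, but the difference of −0.25 ± 0.09 had an adjusted p of 0.204. Its other probe was at −0.10 and its groups overlapped. Egf, the precursor of a growth factor secreted into urine, was at 5.31, 5.09 and 4.98 in corn oil rats and at 5.27, 5.37 and 5.46 in treated rats, a difference of 0.24 ± 0.11 with an adjusted p of 0.291.

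The tight junction genes of the thick ascending limb varied more between animals than between groups. Cldn16, a claudin needed for paracellular magnesium and calcium uptake, had a standard deviation of 0.42 over the 3 corn oil arrays against a difference of 0.15 ± 0.27 (SE). Its other probe was at −0.06. Cldn10, a claudin of sodium-selective junctions, had a difference of −0.06 ± 0.16. Ptger3, a prostaglandin E receptor that opposes vasopressin in this segment, had 0.08 ± 0.09 and, on its 3 probes, differences between −0.03 and 0.08.

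Partner genes of the thick ascending limb gave no call. Of 15 genes for its chloride channels, junctions, sodium pump and transcription factors, 0 passed the limma test. An unadjusted limma p below 0.05 was reached by 1, where 19.7% of all features reached it. The median difference was 0.12. The smallest p values belonged to Fxyd2, a regulatory subunit of the sodium pump, at 0.19 ± 0.06 with an adjusted p of 0.168, and to the calcium-sensing receptor Casr, at 0.14 ± 0.08 with an adjusted p of 0.376, whose other probe was at −0.18. Fxyd2 and the sodium pump are also made by the proximal tubule.

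In the distal convoluted and connecting tubule, 0 of 7 testable genes passed the limma test. An unadjusted limma p below 0.05 was reached by 2, both lower, where 19.7% of all features reached it in either direction. The groups did not overlap for 3, all lower with chlorothalonil, where 14.0% of all features were lower in that way. The gene Calb1 (NM_031984) encodes calbindin, the protein that carries calcium across these cells. Its level was 2.35, 2.30 and 2.33 on the 3 corn oil arrays and 1.76, 2.04 and 1.48 on the 3 chlorothalonil arrays. The corn oil arrays lay within a narrow band and every treated array lay below it, furthest in replicate 3. The difference was −0.56 ± 0.14 (SE), a fold of 0.677 with a 95% interval from 0.529 to 0.866, short of the threshold at an adjusted p of 0.115. It passed in 1 of 16 other settings, normexp background correction, at −0.74 with an adjusted p of 0.0283. Without a single array it ran from −0.70 to −0.42. The array carries 1 matched probe for Calb1, so no other probe bears on this value.

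Slc8a1, the sodium-calcium exchanger that moves calcium out of these cells into the blood, was measured by 6 probes. The probe with the highest signal was at −0.90, −0.98 and −0.83 in corn oil rats and at −1.002, −1.05 and −1.45 in treated rats. Every treated array lay below every control, chlorothalonil replicate 3 furthest, and the difference was −0.26 ± 0.14 (SE) with an adjusted p of 0.347. All 6 probes had a difference below 0, from −0.48 to −0.14, and on 5 of the 6 the groups did not overlap. These probes share a target and are not replicates. Over the 39862 probes tested singly, 1 of the 61 probes of these genes passed the limma test, or 1.64%, where 2.67% of all probes did. It was a dimmer Slc8a1 probe, at −2.64, −2.53 and −2.53 in corn oil rats and −2.93, −2.96 and −3.05 in treated rats, a difference of −0.41 ± 0.07 with an adjusted p of 0.044; it was singled out after its value was seen. Slc8a1 is also transcribed in heart and vessel muscle. On the same arrays, 6 smooth muscle markers had differences from −0.59 to 0.62, with 4 above 0, 2 below and a median of 0.11. Their part in the Slc8a1 value was not tested.

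**Figure D3:**
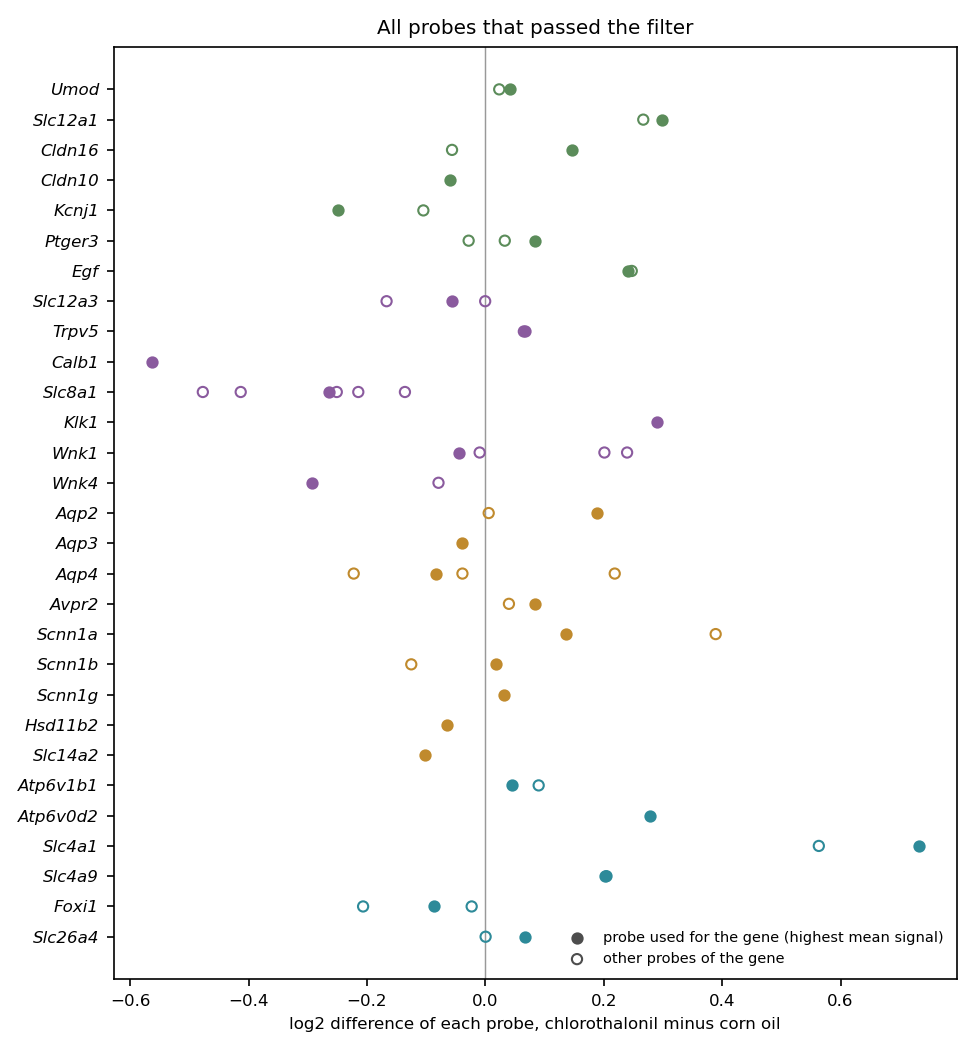
Log2 difference, chlorothalonil minus corn oil (x axis), of each probe that passed the filter, for the 29 genes; filled points are the probes with the highest mean signal and open points the others. The 6 Slc8a1 probes all lie below 0 and both Slc4a1 probes above it. The probes of Aqp4, Cldn16, Ptger3, Scnn1b and Wnk1 fall on either side.

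Other genes of distal calcium and sodium transport had groups that overlapped. Trpv5, the channel through which calcium enters the cell from the urine, was at −2.12, −2.78 and −2.24 in corn oil rats and at −2.45, −2.11 and −2.38 in treated rats. Its groups overlapped fully, with a difference of 0.07 ± 0.20 (SE; 95% interval −0.41 to 0.55). Slc12a3, the sodium chloride cotransporter that thiazide diuretics block, was at 4.69, 4.31 and 4.37 in corn oil rats and at 4.36, 4.77 and 4.08 in treated rats. The highest and the lowest value were both treated, and the difference was −0.06 ± 0.20. Klk1, the tissue kallikrein that the connecting tubule secretes, had 0.29 ± 0.19 with an adjusted p of 0.461. Rat kallikrein genes form a family of near-identical copies, so how much of that signal belongs to Klk1 is uncertain.

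The WNKs are kinases that act upstream of the thiazide-sensitive cotransporter. Wnk4 was at 0.74, 0.74 and 0.50 in corn oil rats and at 0.34, 0.40 and 0.36 in treated rats. The treated arrays were close together and all below the controls, yet the difference of −0.29 ± 0.09 (SE; fold 0.816) had an adjusted p of 0.147. Its other probe was at −0.08, with groups that did not overlap either. Wnk1 had −0.05 ± 0.08, and its 4 probes ran from −0.05 to 0.24. Of 15 measured genes of WNK and aldosterone signalling, 0 passed the limma test, and the median difference was 0.05. Of the 15, 3 reached an unadjusted limma p below 0.05 (2 higher, 1 lower), where 19.7% of all features did. Among them the protease Furin, which cleaves and activates the epithelial sodium channel, was at −0.28 ± 0.08 with an adjusted p of 0.141, and Cab39l, a scaffold of the kinases downstream of WNK, was at 0.18 ± 0.06 with an adjusted p of 0.197.

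In the same list, 3 hormone-responsive genes spread widely between animals. Sgk1, the aldosterone- and glucocorticoid-induced kinase, was at 3.77, 2.72 and 2.54 in corn oil rats and at 3.74, 3.40 and 1.95 in treated rats. Per1, a clock gene that aldosterone and glucocorticoids also induce, was at −1.17, −3.27 and −2.97 in corn oil rats and at −1.30, −1.76 and −3.33 in treated rats. For both genes replicate 1 was the highest array of each group. Fkbp5, another glucocorticoid-induced gene, was at 2.47, 1.37 and 1.49 in corn oil rats and at 2.07, 2.65 and 2.17 in treated rats. The differences were 0.02 ± 0.55 (SE) for Sgk1, 0.34 ± 0.74 for Per1 and 0.52 ± 0.33 for Fkbp5, so these arrays leave wide intervals for them. All 3 were picked once their values had been seen.

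The partners of distal magnesium and calcium transport included calls. Of 14 testable genes, 1 rose, 1 fell and 12 did not pass the limma test, where 1.30% of all features rose and 1.82% fell. The list had 6 at an unadjusted p below 0.05 (2 higher, 4 lower; 19.7% of all features), a median difference of −0.12, and 7 whose groups did not overlap (27.7% of all features). Slc41a3, a magnesium transporter of mitochondria and the distal convoluted tubule, was at −3.06, −3.14 and −3.16 with corn oil and rose to −2.70, −2.59 and −2.46 with chlorothalonil. The difference was 0.54 ± 0.08 (SE), a fold of 1.45, with an adjusted p of 0.036. Only 1 probe was matched to Slc41a3, so no other probe bears on this call. Cnnm4, a magnesium exporter of basolateral membranes, was at −0.15, −0.31 and −0.22 and fell to −0.67, −0.58 and −0.78, a difference of −0.45 ± 0.08 with an adjusted p of 0.0488. The other Cnnm4 probes disagreed, at −0.17, 0.03 and 0.37, and the mean over all 4 probes was −0.056 with an adjusted p of 0.849. Both calls were lost without any 1 of the 6 arrays, with adjusted p from 0.0742 to 0.122 for Slc41a3 and from 0.104 to 0.148 for Cnnm4.

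Other members of that list, chosen here after their values were seen, did not pass. Slc41a1, a relative of Slc41a3, was at 2.12, 2.17 and 2.09 in corn oil rats and at 1.79, 1.77 and 1.90 in treated rats, with an adjusted p of 0.078. Sall3 was at −0.38 ± 0.11 (SE), though another of its probes was at 0.31. S100g, a smaller calbindin of the same cells, was at 2.29, 2.49 and 2.47 in corn oil rats and at 2.43, 1.92 and 1.82 in treated rats. Chlorothalonil replicates 2 and 3 lay below all controls and replicate 1 among them, and its difference of −0.36 ± 0.17 had an adjusted p of 0.325. Atp2b1, the calcium pump that works beside Slc8a1, was at −0.02 ± 0.09, Trpv6, a relative of Trpv5, at −0.37 ± 0.24, and Vdr, the vitamin D receptor, at 0.23 ± 0.09 with an adjusted p of 0.234. Several of these genes are made in other nephron segments as well.

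**Figure D4:**
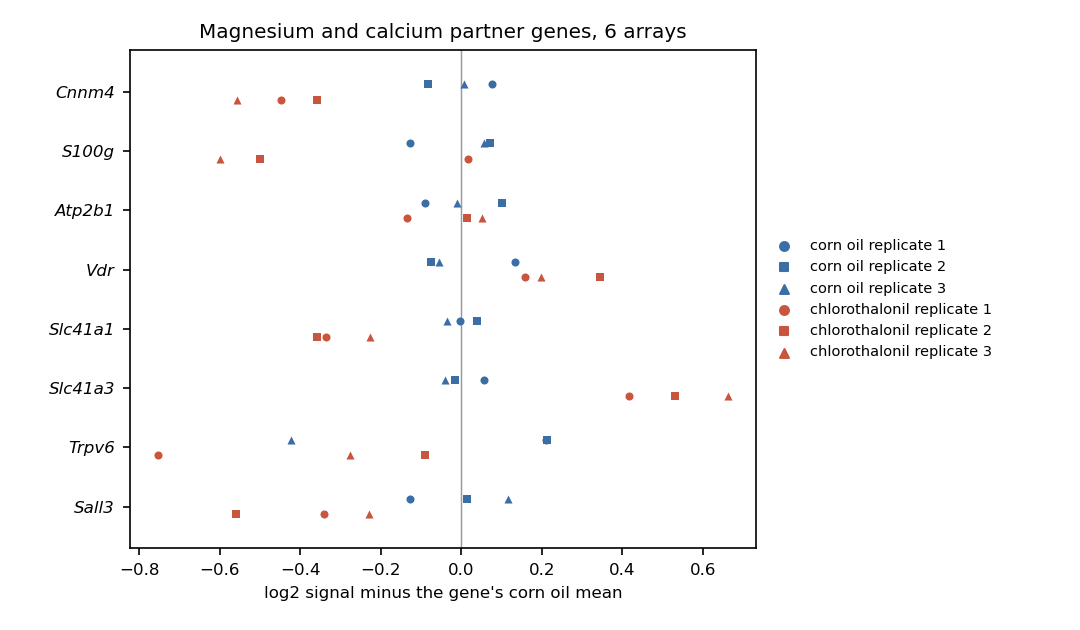
Log2 signal of the 8 magnesium and calcium partner genes named in the text on the 6 arrays, relative to the gene's corn oil mean (x axis); colours give the group, marker shapes the replicate. On all 3 chlorothalonil arrays, Slc41a3 and Vdr lie to the right of 0 and Cnnm4, Slc41a1, Sall3 and Trpv6 to the left. The groups overlap for Trpv6.

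In principal cells and the collecting duct, 0 of 9 testable genes passed the limma test. On the unadjusted limma p, 0 of the 9 were below 0.05, where 19.7% of all features were. The groups overlapped for all 9 on the probe used, where those of 27.7% of all features did not. The median difference was 0.02, and without single arrays it ran from −0.061 (without corn oil replicate 2) to 0.13 (without corn oil replicate 1). The values ran from −0.10 to 0.19, and each 95% interval lay within a change of 1 on the log2 scale. Aqp2, the water channel that vasopressin moves to the apical membrane, was at 6.97, 6.54 and 7.02 in corn oil rats and at 7.40, 6.85 and 6.85 in treated rats. Chlorothalonil replicate 1 was the highest and corn oil replicate 2 the lowest, and the difference was 0.19 ± 0.20 (SE; 95% interval −0.31 to 0.69). The basolateral water channels Aqp3 and Aqp4 had −0.04 ± 0.18 and −0.08 ± 0.11, with Aqp4 probes from −0.22 to 0.22. Avpr2, the vasopressin receptor that controls Aqp2, was at 0.08 ± 0.18. Slc14a2, the urea transporter of the medulla, was at −0.10 ± 0.10, and 2 of its 3 probes did not pass the filter on dim signal.

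The epithelial sodium channel, the final site of regulated sodium uptake, has the subunits Scnn1a, Scnn1b and Scnn1g. Scnn1a was at 0.44, −0.04 and −0.03 in corn oil rats and at 0.25, 0.45 and 0.08 in treated rats, a difference of 0.14 ± 0.17 (SE). Its other probe was at 0.39 ± 0.14, with all 3 treated arrays above all 3 controls, and did not pass over the 39862 probes (adjusted p 0.211). Scnn1b had 0.02 ± 0.22, with its other probe at −0.13, and Scnn1g had 0.03 ± 0.13. Hsd11b2, the enzyme that keeps glucocorticoids off the mineralocorticoid receptor, was at 5.56, 5.50 and 5.69 in corn oil rats and at 5.69, 5.49 and 5.37 in treated rats. Its interval, −0.33 to 0.19, was among the narrower ones of the segment.

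Partner genes of vasopressin signalling and the collecting duct gave 0 calls among 18 tested in limma, with a median of −0.008. An unadjusted limma p below 0.05 was reached by 4 of the 18, where 19.7% of all features did. Kcnma1, the flow-activated potassium channel, had −0.61 ± 0.13 (SE; adjusted p 0.0724), but another of its probes was at 0.76. Pde4d, a phosphodiesterase that breaks down cyclic AMP, was at 0.48 ± 0.14 with an adjusted p of 0.138. Of 7 osmolyte genes that rise with tonicity in the medulla, 0 passed the limma test. Of these 7, 0 reached an unadjusted limma p below 0.05, against 19.7% of all features. The taurine transporter Slc6a6 was at 0.26 ± 0.11 and the inositol transporter Slc5a3 at 0.26 ± 0.12.

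In intercalated cells, 0 of 6 genes passed the limma test and 1, Slc4a1, reached an unadjusted p below 0.05 (19.7% of all features). The median difference was 0.13, with 5 above 0 and 1 below. Slc4a1 (NM_012651) encodes the anion exchanger that returns bicarbonate to the blood from acid-secreting cells. It was at 2.85, 2.14 and 2.79 on the 3 corn oil arrays and at 3.43, 3.42 and 3.12 on the 3 chlorothalonil arrays. Every treated array lay above every control, and the difference was 0.73 ± 0.21 (SE), a fold of 1.66 with a 95% interval from 1.16 to 2.38 and an adjusted p of 0.144. Its other probe, at 0.56, was higher in the same direction but its groups overlapped. The difference was between 0.51 and 0.86 without any 1 array.

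The same exchanger is a main membrane protein of red blood cells. Of 12 listed red blood cell transcripts, 8 were testable, all 8 were above 0, 7 did not overlap between the groups (27.7% of all features), 6 reached an unadjusted limma p below 0.05 (19.7% of all features), and 0 passed. Their differences ran from 0.24 to 1.15, with a median of 0.39. Rhag and Gata1 were not well above background on any array, and 2 were not matched. Summed over the 8 genes, the linear signal relative to the 75th percentile was between 477 and 498 on the corn oil arrays and between 558 and 605 on the chlorothalonil arrays. The beta-globin gene Hbb was at 0.24 ± 0.07 (SE) and Slc25a37, a mitochondrial iron importer, at 0.45 ± 0.09 with an adjusted p of 0.06. The part of red blood cell RNA in the Slc4a1 value was not tested.

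For the other 5 genes of intercalated cells the groups overlapped. Slc26a4, pendrin, which exchanges chloride for bicarbonate at the apical membrane, was at 5.96, 4.88 and 5.43 in corn oil rats and at 5.54, 5.43 and 5.51 in treated rats. The controls spread widely and the treated arrays lay inside their range, with a difference of 0.07 ± 0.26 (SE). Slc4a9, the basolateral exchanger of the same cells, had 0.20 ± 0.21, and Foxi1, the forkhead factor that specifies intercalated cells, had −0.09 ± 0.22. Atp6v1b1 and Atp6v0d2, subunits of the proton pump found in these cells, had 0.04 ± 0.13 and 0.28 ± 0.13. Of 28 partner genes of the proton pump and acid-base transport, 0 passed the limma test, with a median of 0.01. An unadjusted limma p below 0.05 was reached by 0 of the 28, against 19.7% of all features. The smallest p values were those of Atp6v1c1, at 0.21 ± 0.09, and the gastric proton pump subunit Atp4a, at 0.25 ± 0.11.

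Among the corn oil arrays, replicate 1 was the highest for all 6 intercalated cell genes and replicate 2 the lowest for 5, and among the chlorothalonil arrays replicate 1 was the highest for all 6. Over all features, corn oil replicate 1 was the highest control in 38.5% and chlorothalonil replicate 1 the highest treated array in 31.4%. Relative to the corn oil mean, the 6 genes averaged 0.35, −0.34 and −0.0042 on corn oil replicates 1 to 3 and 0.31, 0.21 and 0.095 on chlorothalonil replicates 1 to 3. Of the 28 partner genes, corn oil replicate 1 was the highest control for 21, and chlorothalonil replicate 1 the highest treated array for 10. Corn oil replicate 1 was also the highest control for 9 of 9 endothelial, 6 of 6 smooth muscle, 7 of 9 podocyte and 13 of 22 proximal tubule markers, and for 0 of 9 macrophage and lymphocyte markers, so its place is not particular to the distal genes. Chlorothalonil replicate 1 was the highest treated array for 3, 0, 2, 6 and 2 of these markers, in the same order. The thick ascending limb ran another way, with corn oil replicate 1 the lowest control for 5 of 7 genes, and chlorothalonil replicate 3 the highest treated array for 5 of 7. In the distal convoluted and connecting tubule, corn oil replicate 1 was the highest control for 6 of 7 genes. Chlorothalonil replicate 1 was the lowest treated array there for 4 of 7. Among the 9 principal cell and collecting duct genes, corn oil replicate 1 was the highest control for 5. For 6 of those 9, chlorothalonil replicate 1 was the highest treated array, and for 6 chlorothalonil replicate 3 was the lowest. Genes of 1 cell type on 1 array share that array's RNA, so these counts describe single arrays. Without corn oil replicate 2, the lowest of the controls, the intercalated cell median turned from 0.13 to −0.029, and without corn oil replicate 1 it was 0.36. Without chlorothalonil replicate 2, the median of the distal convoluted and connecting tubule went from −0.056 to −0.24, and without corn oil replicate 1 it turned to 0.021.

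**Figure D5:**
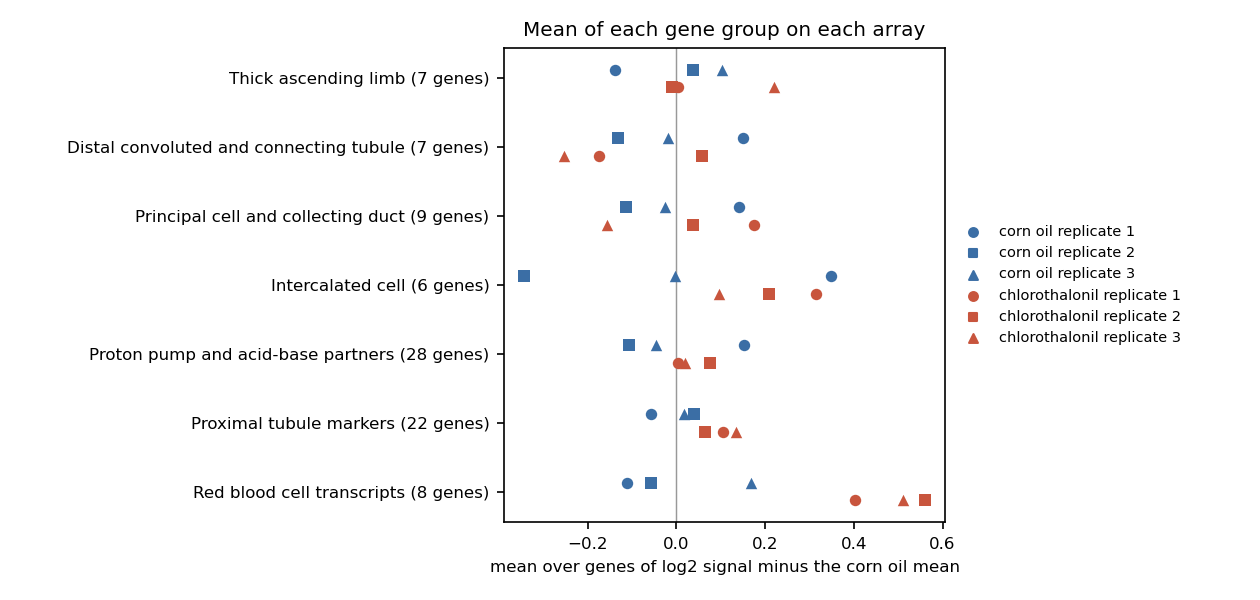
Mean over the genes of each group of log2 signal minus the gene's corn oil mean (x axis), for each of the 6 arrays; colours give the group, marker shapes the replicate. The intercalated cell genes spread most widely over the corn oil arrays, from −0.34 to 0.35, and the red blood cell transcripts lie higher on all 3 chlorothalonil arrays, from 0.40 to 0.56.

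Other cells of the cortex gave few calls. Of 22 proximal tubule markers, 0 passed the limma test and 6 reached an unadjusted p below 0.05 (5 higher, 1 lower; 19.7% of all features), with 15 above 0 and 7 below, from −0.41 to 0.89. The succinate and citrate transporter Slc13a3 had 0.34 ± 0.06 (SE; adjusted p 0.0507), and the phosphate transporter Slc34a1 was at 0.27 ± 0.06 with an adjusted p of 0.0886. Among 9 podocyte and 9 endothelial markers 0 passed the limma test. The podocyte median was 0.03, with 6 above 0 and 3 below and Cdkn1c at 0.35. The endothelial median was 0.06, with 8 above 0 and 1 below, Cdh5 at 0.17 and Tek at 0.16. Of 6 smooth muscle markers 1, Actg2, fell by 0.59 on the log2 scale with an adjusted p of 0.0135, though another of its probes was at 0.06, while Myocd was at 0.62 with an adjusted p of 0.12. Of 9 macrophage and lymphocyte markers 0 passed the limma test, with 3 above 0, 6 below, a median of −0.05, Adgre1 at −0.47 and Csf1r at −0.21, and of 3 testable urothelium markers 0 passed, with Upk1a at 0.48 and Upk1b at 0.27. The part of these cells in the values of the distal genes was not tested.

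Promoter windows of 3 genes are shown: Atp6v1b1 and Slc26a4 because they were highest on the same array of the corn oil group as the forkhead factor Foxi1, and Wnk4 because it was lower on all 3 treated arrays. Neither trait is particular to them. All 6 intercalated cell genes were highest on that corn oil array, replicate 1, and Calb1, Kcnj1 and Slc8a1 were also lower on all 3 treated arrays. Corn oil replicate 1 was the highest control for 38.5% of all features, 9 of 9 endothelial and 6 of 6 smooth muscle markers. Over all features, 14.0% were lower on all 3 treated arrays than on any control. Each is the 250 bases before the gene start in RefSeq assembly GRCr8, at chr4:117781194-117781443 (plus strand) for Atp6v1b1, chr6:53873217-53873466 (minus strand) for Slc26a4 and chr10:86702708-86702957 (plus strand) for Wnk4, written 5′ to 3′ along the gene. Capitals mark matches, on either strand, to a forkhead motif (TGTTTAC), an antioxidant response element core (TGACNNNGC), AGATAA or TATAAA.
Atp6v1b1: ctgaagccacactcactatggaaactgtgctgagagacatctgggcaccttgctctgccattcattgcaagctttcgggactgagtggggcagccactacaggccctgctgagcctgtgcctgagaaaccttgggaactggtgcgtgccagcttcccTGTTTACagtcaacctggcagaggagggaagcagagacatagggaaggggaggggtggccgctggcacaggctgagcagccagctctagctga
Slc26a4: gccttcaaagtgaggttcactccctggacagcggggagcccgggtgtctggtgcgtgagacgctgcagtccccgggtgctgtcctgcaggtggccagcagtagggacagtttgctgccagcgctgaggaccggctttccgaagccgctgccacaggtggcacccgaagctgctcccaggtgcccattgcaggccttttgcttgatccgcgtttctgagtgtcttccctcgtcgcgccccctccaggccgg
Wnk4: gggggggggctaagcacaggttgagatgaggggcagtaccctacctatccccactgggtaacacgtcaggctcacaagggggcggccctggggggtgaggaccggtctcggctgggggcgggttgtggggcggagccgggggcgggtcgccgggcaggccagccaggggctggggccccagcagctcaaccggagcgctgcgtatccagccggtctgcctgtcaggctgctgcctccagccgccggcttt

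The forkhead letters stood in the Atp6v1b1 window and in those of Avpr2, Cldn10 and Slc12a1, 4 of 28 genes with a window, against 3.21% of all 33469 windows. The antioxidant response core stood in 3 of the 28, Klk1, Ptger3 and Scnn1b, against 10.1% of all windows, and the 3 genes had differences of 0.29, 0.08 and 0.02. The letters AGATAA stood in 3 of the 28 and TATAAA in 6, against 10.3% and 12.9%. A match describes letters in this window and is not a binding site.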

How the data were processed

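Each of 6 samples was read on 1 Agilent 1-colour array. The deposited intensity values, per the file headers, are processed signals that Agilent Feature Extraction had background-subtracted and detrended, and the submitters' processing notes give version 10.7. Per the file headers the array design used another genome build, so no coordinates were taken from it. The deposited value table holds a ratio: the processed signal over a constant near the array's 75th percentile, with column medians from 0.105 to 0.112. How it was scaled is not stated in the labels, and it was used only as an alternative.

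Here the array's 75th percentile was subtracted from the log2 processed signal, and outlier spots were left out. Probes had to be well above background throughout 1 group or the other and measured on 2 or more arrays of each, which 39862 of 61537 were. RefSeq accessions (GRCr8) named 28206 probes with 1 gene, 0 with several and left 33331 unnamed. The probe with the highest mean signal stood for a gene. Differences were fitted with limma 3.58.1 in R 4.3.3 (lmFit, eBayes) over 29115 features, with Benjamini-Hochberg adjustment at 0.05 and 95% intervals. The pipeline was tested on simulated data. The number of arrays limits the precision, and no label states how the tissue was divided, so p-values measure the spread between these samples.

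The genes and lists were chosen with earlier results of these data known. All 33 genes are accounted for. From each other list, genes past the threshold are named, or up to 2 with the smallest p where fewer than 2 passed. A few genes that this rule or a list holds are not reported here. Other names are marked as chosen after their values were seen. The alternatives covered normalization, background correction, filters, probe choice, the variance prior, the replicate block and leaving out each array, and Slc41a3 and Cnnm4 were added to them after seeing the data.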

Additional observations from a re-analysis of the deposited data

How the results depend on the processing

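Settings were changed 1 at a time. Of 29 distal genes, 14 kept their sign in all 16 settings. All features past the threshold numbered 909, 1332 with normexp, 1315 with the trended robust prior, 172 with no filter on dim probes and 112 to 389 without single arrays. Distal genes past the threshold numbered 1, Calb1, with normexp and 0 in the other 15 settings. Their count at an unadjusted p under 0.05 was 3 to 6 without single arrays. The proximal tubule median was −0.046 with quantile normalization and 0.15 with median scaling. Signs turned for Umod (−0.18) and Scnn1b (−0.023) with quantile normalization, for Wnk1 (0.0074) and Aqp3 (0.013) with median scaling, and for Wnk1 (0.096) and Scnn1b (−0.054) with the mean of probes. Their causes were not tested. Leaving out single arrays also turned the sign of Umod (−0.13 to 0.15), Cldn16 (−0.081 to 0.34), Cldn10 (−0.17 to 0.069), Slc12a3 (−0.24 to 0.10), Trpv5 (−0.13 to 0.20), Wnk1 (−0.092 to 0.021), Aqp3 (−0.21 to 0.099), Aqp4 (−0.14 to 0.0079), Avpr2 (−0.061 to 0.22), Scnn1b (−0.10 to 0.25), Scnn1g (−0.078 to 0.15), Hsd11b2 (−0.15 to 0.0068), Atp6v1b1 (−0.083 to 0.15), Foxi1 (−0.23 to 0.12) and Slc26a4 (−0.21 to 0.33). The calls of Slc41a3 and Cnnm4, alternatives chosen after seeing the data, were lost with no filter on dim probes (adjusted p 0.106 and 0.137) and with the replicate block (0.143 and 0.157), and that of Cnnm4 also with median scaling (0.084).

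With the replicate block, limma had 2 residual degrees of freedom in place of 4 and called 0 features, so 0 distal genes. At an unadjusted limma p under 0.05 there were 5271 features, among them 5 distal genes. Correlations of same-numbered arrays' deviations were 0.095, 0.018 and 0.051, and not every array correlated best with its own number. The arrays were therefore not treated as pairs. Whether same-numbered arrays shared a handling step was not tested. The slide block was not run, since each group lies on 1 slide. With 3 arrays a group, the median width of the 95% interval was 0.82 for the distal genes and 0.51 over all features.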
